A study of Homo sapiens with 6 samples.

Results

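Sestrins, the DDIT4 genes, the beta subunits of AMPK, TSC2, DEPDC5 and MTOR form a set of genes that hold back growth signalling through mTORC1 or carry it. The set was fixed by gene symbol: SESN1, SESN2, SESN3, DDIT4, DDIT4L, PRKAB1, PRKAB2, TSC2, DEPDC5 and MTOR. All 10 symbols were found among the 55882 genes of the deposited count table. Polyadenylated RNA was sequenced from DIvA cells, U2OS-derived human osteosarcoma cells that carry the restriction enzyme AsiSI joined to a hormone-binding domain, so that 4-hydroxytamoxifen (4-OHT) brings the enzyme to the nuclear DNA, which it cuts. There were 3 libraries from p53 KO cells and 3 from p53 WT cells, and every library came from cells given 300 nM 4-OHT for 5 h. No library came from cells without 4-OHT, so the values show the difference between genotypes after cutting and not the response to it. The labels do not give the number of knockout clones or whether replicates were separate cultures, so p-values measure only the spread between these samples.

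As background, mTORC1 is a kinase complex that drives protein and lipid synthesis when amino acids and growth factors are present. Sestrins bind the GATOR2 complex, and SESN2 is a leucine sensor that lets go of GATOR2 when leucine binds. Free GATOR2 works against GATOR1, whose subunit DEPDC5 is part of the brake on the Rag GTPases that bring mTORC1 to the lysosome. DDIT4, also called REDD1, acts through the complex of TSC1 and TSC2, which switches off RHEB, the direct activator of mTORC1. AMPK is the energy-sensing kinase that phosphorylates TSC2, and its beta subunits hold the catalytic and regulatory subunits together. SESN1, SESN2 and DDIT4 are textbook p53 target genes. SESN2 and DDIT4 also respond to ATF4 in amino acid stress, DDIT4 to HIF1A in hypoxia and SESN3 to FOXO factors.

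Total counts ranged from 20393909 to 72621732 in p53 KO libraries and from 24347609 to 79767519 in p53 WT libraries. CDKN1A, the cyclin-dependent kinase inhibitor that p53 induces, had 49.1, 41.8 and 46.5 CPM (counts scaled to library size) in p53 KO libraries, against 572, 521 and 533 CPM in p53 WT libraries, so every library matched its label. Of 11 mesenchymal and osteoblast markers, VIM, SPARC, COL1A1, FN1 and THY1 averaged 168 to 1628 CPM in p53 KO and 209.7 to 3306 CPM in p53 WT. COL1A2, NT5E, ENG, ALPL and RUNX2 averaged 0.493 to 7.33 CPM in p53 KO and 0.311 to 11.6 CPM in p53 WT, and SP7, an osteoblast factor, had no count. Of 10 tested mesenchymal and osteoblast markers 6 fell and 1 rose in p53 KO, and their summed level was 4017 to 4249 CPM in p53 KO libraries and 6926 to 7371 CPM in p53 WT libraries. Summed levels of 8 epithelial markers were 18.5 to 24.9 CPM in p53 KO and 8.72 to 14.3 CPM in p53 WT, with 2 higher. For 8 leukocyte markers they were 6.97 to 12.3 CPM in p53 KO and 4.07 to 5.04 CPM in p53 WT, with 2 of the 4 tested higher and LYZ at 0. For 7 endothelial markers they were 58.9 to 71.0 CPM in p53 KO and 50.9 to 52.98 CPM in p53 WT, with 1 higher. The part of these shifts in the results was not tested. In bulk RNA, fewer cells that express a gene and less RNA per cell cannot be told apart.

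Of the 10 members, 9 had enough counts to be tested, and none of these 9 had fewer than 101 counts in any library. An adjusted p under 0.05 by edgeR's quasi-likelihood test, corrected over all 22352 genes tested, was taken as past the threshold. SESN1, SESN2, SESN3, DDIT4, PRKAB2 and TSC2 fell in p53 KO, 6 of 9, and none rose. Over all tested genes 26.5% passed: 14.4% were lower and 12.1% were higher in p53 KO by the same rule. SESN1, SESN2, DDIT4 and PRKAB2, 4 of the 9, were both past the threshold and at least 2-fold lower, against 4.92% of all tested genes. The p53 KO libraries lay below all p53 WT libraries for 8 of the 9, where 21.4% of all tested genes did so, and MTOR was the exception. The median log2 fold change of the 9, p53 KO over p53 WT, was -0.98, against 0.0052 over all tested genes.

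The sestrin genes all fell, SESN1 and SESN2 more than 4-fold and SESN3 by less. SESN1 had 6.36, 6.86 and 5.06 CPM in p53 KO libraries and 23.4, 25.2 and 26.4 CPM in p53 WT libraries. These groups were far apart relative to their spread, with means of 6.10 ± 0.929 CPM in p53 KO and 25.0 ± 1.53 CPM in p53 WT (SD, n = 3 each). The log2 fold change of SESN1 was -2.02 (SE 0.16), or 4.06-fold lower, with an adjusted p of 1.04e-06 by edgeR. SESN2, the leucine-sensing sestrin, had 18.9, 14.0 and 16.3 CPM in p53 KO libraries and 82.2, 71.4 and 81.0 CPM in p53 WT libraries. No p53 KO library came near a p53 WT one, and the means were 16.4 ± 2.46 CPM in p53 KO and 78.2 ± 5.94 CPM in p53 WT (SD, n = 3 each). The log2 fold change of SESN2 was -2.25 (SE 0.13), or 4.76-fold lower, with an adjusted p of 5.03e-08 by edgeR, the 54th smallest p of all tested genes.

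SESN3, the sestrin best known as a FOXO target, had 11.7, 9.03 and 6.97 CPM in p53 KO libraries and 16.2, 19.5 and 19.7 CPM in p53 WT libraries. The groups did not overlap, but p53 KO replicate 1 lay much nearer to the p53 WT libraries than p53 KO replicate 3 did. Means were 9.24 ± 2.38 CPM in p53 KO and 18.4 ± 1.99 CPM in p53 WT (SD, n = 3 each), a log2 fold change of -0.98 (SE 0.19), or 1.97-fold lower, with an adjusted p of 0.00173 by edgeR. Chromosome 11 genes around SESN3 went the other way: 13 of its 50 nearest protein-coding neighbours were below 0, and their median log2 fold change was 0.27. With that median taken off, SESN3 had -1.25 (adjusted p = 0.000374 by edgeR).

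DDIT4, the stress-induced inhibitor of mTORC1, fell with a wider spread than the sestrins. It had 9.13, 4.10 and 5.66 CPM in p53 KO libraries and 23.4, 15.4 and 21.1 CPM in p53 WT libraries. The lowest p53 WT library, replicate 2, was still above the highest p53 KO library, replicate 1. Means were 6.30 ± 2.57 CPM in p53 KO and 19.9 ± 4.14 CPM in p53 WT (SD, n = 3 each), and the log2 fold change was -1.64 (SE 0.26), or 3.12-fold lower, with an adjusted p of 0.000323 by edgeR. Without p53 KO replicate 1 it was -2.05, and without p53 KO replicate 2 it was -1.40, both past the threshold. Its paralog DDIT4L, or REDD2, had 0 counts in all 6 libraries. With none seen, up to 3 counts remain possible, which is 0.0376 CPM where depth was greatest and 0.147 CPM where it was least, so DDIT4L RNA was not detectable at this depth.

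**Figure D1:**
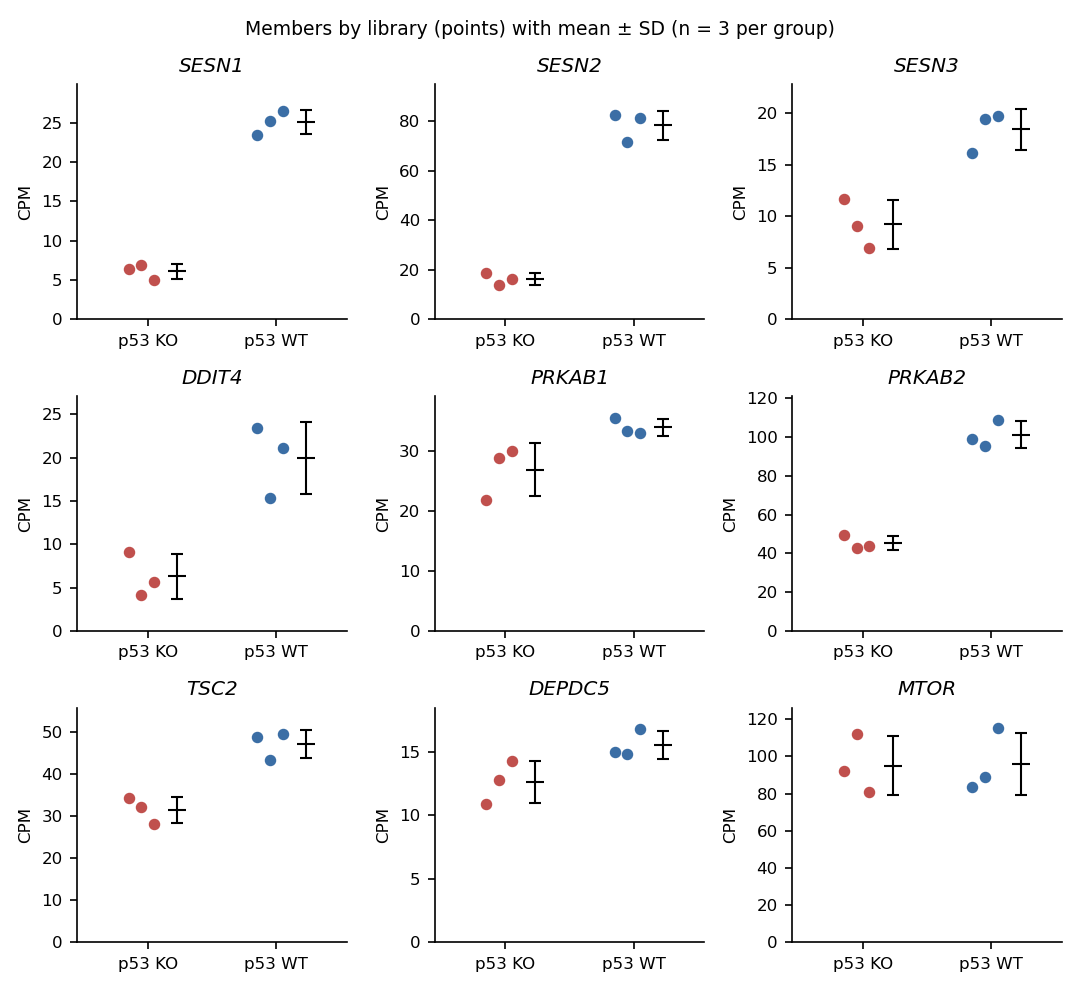
Levels of the 9 tested members in CPM, with one point per library (replicates 1 to 3 from left to right) and the mean ± SD of 3 libraries beside them, p53 KO in red and p53 WT in blue. The groups are widely apart for SESN1, SESN2 and PRKAB2, close for PRKAB1 and DEPDC5, and overlapping for MTOR.

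The beta subunits of AMPK differed in their fall. PRKAB2, the beta2 subunit, had 49.7, 43.0 and 43.9 CPM in p53 KO libraries and 99.1, 95.7 and 109 CPM in p53 WT libraries. All p53 KO libraries were well below the p53 WT ones, with means of 45.5 ± 3.63 CPM in p53 KO and 101 ± 6.88 CPM in p53 WT (SD, n = 3 each). The log2 fold change of PRKAB2 was -1.15 (SE 0.11), or 2.22-fold lower, with an adjusted p of 3.33e-06 by edgeR. PRKAB1, the beta1 subunit, had 21.7, 28.8 and 30.0 CPM in p53 KO libraries and 35.5, 33.2 and 32.9 CPM in p53 WT libraries. The groups did not overlap, but the gap between them was smaller than the spread within p53 KO. Its log2 fold change was -0.34 (SE 0.14, 95% interval -0.64 to -0.04), with an adjusted p of 0.0896 by edgeR, which did not pass. PRKAB1 passed by limma-voom (-0.41, adjusted p = 0.0293), without p53 KO replicate 3 (-0.42, adjusted p = 0.0351 by edgeR) and with the median of its neighbours taken off (-0.44, adjusted p = 0.0374 by edgeR), but with p53 KO replicate 1 left out it had -0.20 (adjusted p = 0.309 by edgeR).

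TSC2, the GTPase-activating subunit of the TSC complex, had 34.3, 32.3 and 28.1 CPM in p53 KO libraries and 48.9, 43.3 and 49.5 CPM in p53 WT libraries. The groups were apart, with means of 31.6 ± 3.16 CPM in p53 KO and 47.2 ± 3.42 CPM in p53 WT (SD, n = 3 each). The log2 fold change was -0.58 (SE 0.12), or 1.49-fold lower, with an adjusted p of 0.00258 by edgeR. Its neighbours on chromosome 16 had moved by as much: 48 of the 50 nearest were below 0, with a median of -0.49. With that median taken off, TSC2 had -0.08 (adjusted p = 0.704 by edgeR), which did not pass. TSC2 also shares exon sequence with PKD1 and NTHL1 on the opposite strand, and the strand setting of the count is not given in the sources used here. PKD1, the polycystin 1 gene, fell too, at 37.5 ± 4.09 CPM in p53 KO and 53.4 ± 6.76 CPM in p53 WT (SD, n = 3 each), a log2 fold change of -0.51 (adjusted p = 0.00827 by edgeR).

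DEPDC5, the GATOR1 subunit, had 10.9, 12.8 and 14.2 CPM in p53 KO libraries and 15.0, 14.8 and 16.8 CPM in p53 WT libraries. The highest p53 KO value lay just under the lowest p53 WT value. The log2 fold change was -0.30 (SE 0.16, 95% interval -0.65 to 0.05), with an adjusted p of 0.202 by edgeR. Of its 50 nearest neighbours on chromosome 22, 39 were below 0 with a median of -0.43, and with that taken off DEPDC5 had 0.13 (adjusted p = 0.664 by edgeR). MTOR, the kinase itself, had 92.0, 112 and 80.9 CPM in p53 KO libraries and 83.6, 88.9 and 115 CPM in p53 WT libraries. The groups overlapped throughout, at means of 95.0 ± 15.8 CPM in p53 KO and 95.9 ± 16.9 CPM in p53 WT (SD, n = 3 each). Its log2 fold change was -0.0090 (SE 0.14, adjusted p = 0.975 by edgeR), and its 95% interval of -0.31 to 0.29 leaves room for changes of up to that size either way. Its antisense gene MTOR-AS1 shares exon sequence with it but held 467 counts in all, against 28373 for MTOR.

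**Figure D2:**
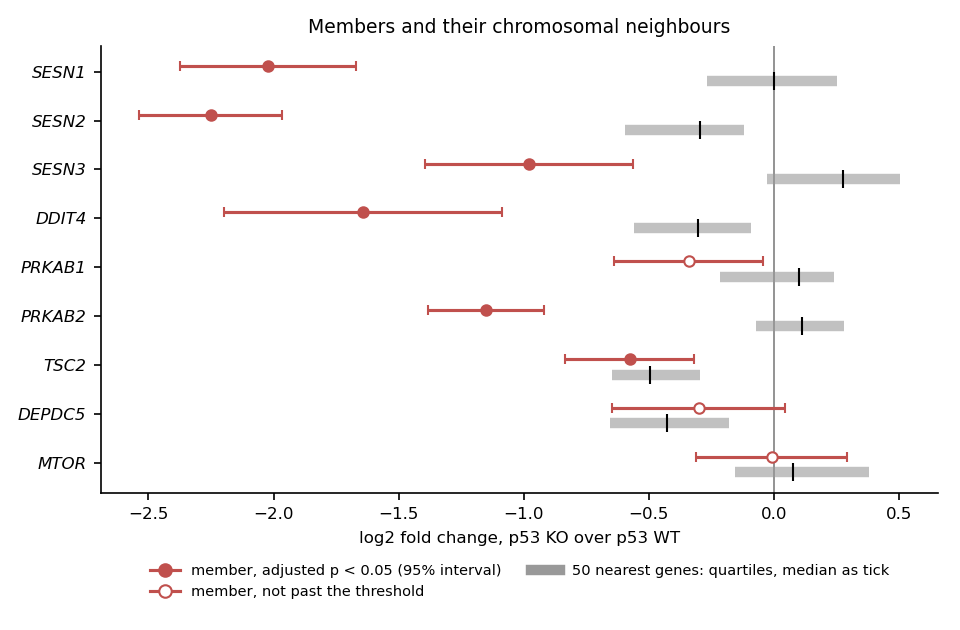
Log2 fold change, p53 KO over p53 WT, of the 9 tested members (red points with 95% intervals as lines, filled where past the threshold) above the quartiles (grey bar) and median (tick) of their 50 nearest protein-coding genes. SESN1, SESN2, SESN3, DDIT4 and PRKAB2 lie left of their neighbours' bar, while TSC2, at -0.58, lies within it.

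For the other members that fell, the neighbours' median moved less than the gene, not at all or the other way. Of the 50 nearest, 42 had a negative log2 fold change for SESN2, 42 for DDIT4, 25 for SESN1 and 18 for PRKAB2. The median of the 50 nearest was -2.4e-05 for SESN1, -0.30 for SESN2, -0.30 for DDIT4 and 0.11 for PRKAB2. With it taken off, SESN1 had -2.02, SESN2 -1.95, DDIT4 -1.34 and PRKAB2 -1.26, all past the threshold. Across the 6 fits that left out 1 library each, SESN1 ranged from -2.11 to -1.91, SESN2 from -2.37 to -2.15, SESN3 from -1.19 to -0.81, PRKAB2 from -1.22 to -1.10 and TSC2 from -0.64 to -0.49, always past the threshold. Among p53 KO libraries, replicate 1 was the highest for SESN2, SESN3, DDIT4, PRKAB2 and TSC2 and the lowest for PRKAB1 and DEPDC5.

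Because the paralogs fell by different amounts, their balance within a library was also compared, a choice made after the values were seen. The ratio of SESN1 to SESN3 counts was 0.543, 0.759 and 0.727 in p53 KO libraries and 1.45, 1.30 and 1.34 in p53 WT libraries. SESN1 thus had fewer counts than SESN3 in every p53 KO library and more in every p53 WT library. These counts were not scaled to exon length, which is 3945 bases for SESN1 and 10228 bases for SESN3. Per kilobase of exon, SESN1 stayed above SESN3 in p53 KO libraries too, at 1.28 to 1.74 against 0.681 to 1.15 CPM per kb. The ratio of SESN2 to SESN3 was 1.61, 1.55 and 2.34 in p53 KO libraries and 5.09, 3.67 and 4.11 in p53 WT libraries, again with no overlap between genotypes. The ratio of PRKAB2 to PRKAB1 was 2.29, 1.49 and 1.46 in p53 KO libraries and 2.79, 2.88 and 3.31 in p53 WT libraries. Each of these 3 ratios gave p = 0.1 in a two-sided exact permutation test, the smallest p that 3 libraries against 3 can give, or 0.133 after Benjamini-Hochberg adjustment over the 4 ratios compared. SESN2 to SESN1, at 2.97, 2.04 and 3.22 in p53 KO libraries and 3.52, 2.83 and 3.07 in p53 WT libraries, overlapped (exact permutation p = 0.5).

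**Figure D3:**
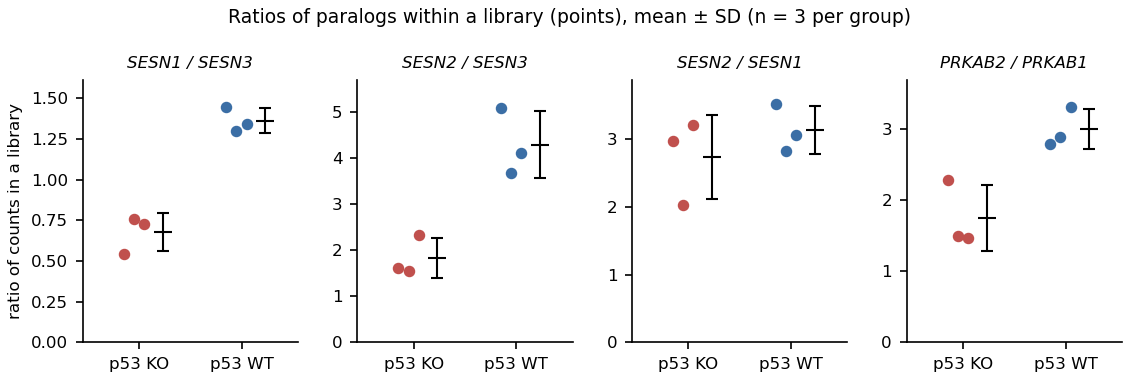
Ratio of raw counts of paralogs within each library (points, replicates 1 to 3 from left to right) with the mean ± SD of 3 libraries, p53 KO in red and p53 WT in blue. The groups do not overlap for SESN1 to SESN3, SESN2 to SESN3 and PRKAB2 to PRKAB1, and they overlap for SESN2 to SESN1.

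Per kilobase of exon, using exon lengths from GENCODE 29, the order of the members differed between the genotypes. In p53 KO cells MTOR came first at 10.0 ± 1.67 CPM per kb, followed by PRKAB1 at 8.58 ± 1.43 and PRKAB2 at 8.40 ± 0.670 CPM per kb, and the ranges of these neighbours overlapped. Next in p53 KO came SESN2 at 4.74 ± 0.713, TSC2 at 4.45 ± 0.446 and DDIT4 at 3.60 ± 1.47 CPM per kb, also with overlapping ranges. SESN1 at 1.55 ± 0.235 and DEPDC5 at 1.52 ± 0.200 CPM per kb overlapped each other, and SESN3 was last at 0.903 ± 0.233 CPM per kb. In p53 WT cells SESN2 came first at 22.6 ± 1.72 CPM per kb and PRKAB2 second at 18.7 ± 1.27 CPM per kb, each apart from the next. DDIT4 at 11.4 ± 2.37, PRKAB1 at 10.8 ± 0.458 and MTOR at 10.1 ± 1.78 CPM per kb overlapped in p53 WT, as did TSC2 at 6.66 ± 0.482 and SESN1 at 6.34 ± 0.388 CPM per kb. DEPDC5 at 1.87 ± 0.135 and SESN3 at 1.80 ± 0.195 CPM per kb were last in p53 WT (SD, n = 3 for every value).

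The authors' deposited table marks 124 of 35987 genes, or 0.345%, as meeting a p53 cistrome, and SESN1, SESN2 and DDIT4 carry the mark, 3 of the 9 members it lists. How the mark was assigned is not given in the sources used here. In the authors' deposited table the log2 fold changes, read as p53 WT over p53 KO, were 2.00 for SESN1, 2.23 for SESN2, 1.63 for DDIT4 and 0.96 for SESN3. PRKAB1 had 0.32 with an adjusted p of 0.0598 in the authors' deposited table. The promoters of the 3 marked genes are shown because they join the largest falls to the mark. Each sequence is the 250 bases before the RefSeq start, 5′ to 3′ on the gene's own strand, with places that match the p53 consensus decamer with 1 mismatch in capitals. They lie on GRCh38.p14 at chr6:109094847-109095096 (minus strand) for SESN1, chr1:28259268-28259517 (plus strand) for SESN2 and chr10:72273674-72273923 (plus strand) for DDIT4.
SESN1: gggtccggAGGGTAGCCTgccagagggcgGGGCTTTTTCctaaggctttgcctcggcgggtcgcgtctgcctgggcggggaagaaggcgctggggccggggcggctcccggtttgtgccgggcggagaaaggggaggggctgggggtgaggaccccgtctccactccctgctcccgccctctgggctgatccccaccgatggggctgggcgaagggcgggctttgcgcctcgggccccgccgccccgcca
SESN2: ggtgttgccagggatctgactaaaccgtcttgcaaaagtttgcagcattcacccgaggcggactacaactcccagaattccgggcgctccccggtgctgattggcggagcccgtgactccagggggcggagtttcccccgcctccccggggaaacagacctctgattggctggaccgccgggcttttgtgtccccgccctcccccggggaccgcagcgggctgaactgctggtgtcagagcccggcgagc
DDIT4: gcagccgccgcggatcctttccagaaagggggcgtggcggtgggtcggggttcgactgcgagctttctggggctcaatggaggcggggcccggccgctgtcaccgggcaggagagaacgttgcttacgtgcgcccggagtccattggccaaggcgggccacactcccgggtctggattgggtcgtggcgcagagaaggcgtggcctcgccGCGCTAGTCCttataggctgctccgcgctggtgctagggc

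None of the 10 members had an exact match to the p53 decamer in these 250 bases, where 5.53% of 27305 RefSeq promoters had one. With 1 mismatch allowed, SESN1 had matches starting 242 and 221 bases before the start and DDIT4 had one starting 40 bases before it. DDIT4L, PRKAB1, TSC2 and MTOR also had such matches, so 6 of 10 members did, against 57.7% of all promoters. The decamer reads the same on both strands as a consensus, so each place was counted once. Only this window of each gene was searched, and for single decamers only, so sites elsewhere in a gene were not looked for. How such matches relate to the cistrome mark was not tested. These windows are rich in G and C, at 74.4% for SESN1, 65.6% for SESN2 and 68.8% for DDIT4. The window of SESN3 held 42.8%.

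Genes whose pattern over the 6 libraries was nearest to each sestrin were found by the root mean square distance between centred log2 CPM profiles, among the 12695 genes that averaged 5 CPM or more. HKDC1, a hexokinase family member, C10orf55 and TNC, the matrix protein tenascin C, were nearest to SESN1, at 0.0750, 0.0866 and 0.105. C10orf55 shares exon sequence with PLAU on the opposite strand, so its reads are uncertain. SH2D5, NRXN3 and ANK3 were nearest to SESN2, at 0.116, 0.130 and 0.151, and TMX3, C12orf76 and SLC22A4 to SESN3, at 0.0488, 0.0646 and 0.0717. Pearson's r of these pairs over the 6 libraries was 0.994 to 0.999, a description of libraries that share 2 group levels and nothing more.

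Over 10 lists of pathway genes, 102 genes other than members were tested, 19 of which fell and 13 rose in p53 KO, or 18.6% and 12.7%, close to the 14.4% and 12.1% of all tested genes. Their median log2 fold change was 0.03. With the median of neighbours taken off, 9 of the 19 lower genes and 9 of the 13 higher genes were still called. In that fit 11 were lower and 14 higher in all, including genes not called before.

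**Figure D4:**
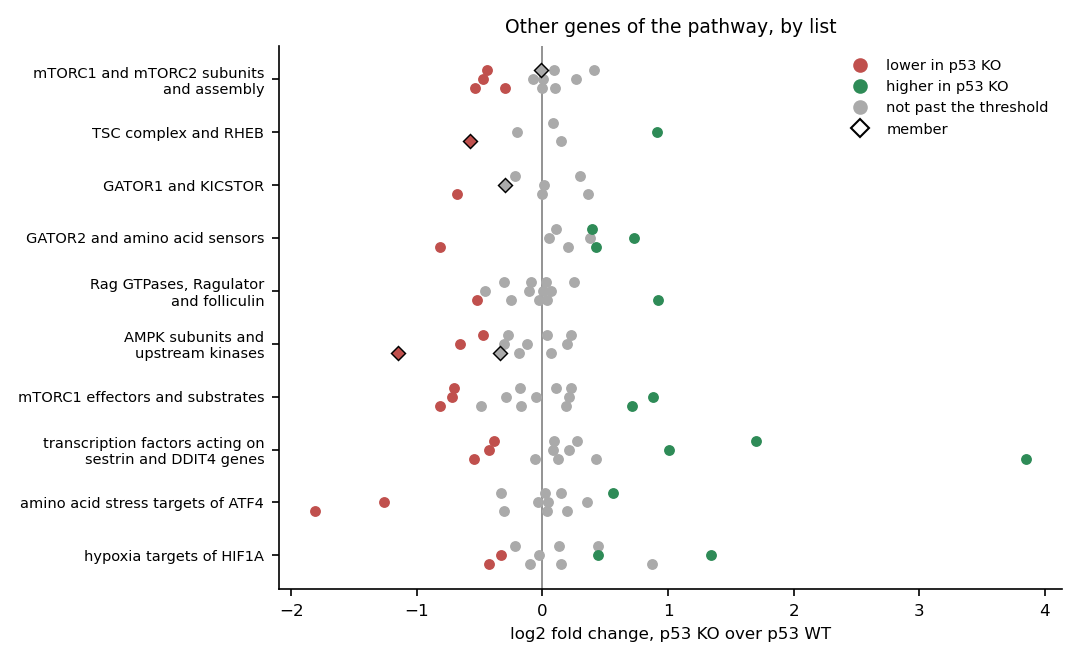
Log2 fold change, p53 KO over p53 WT, of every tested gene in the 10 pathway lists, coloured by call, with members as diamonds. Most genes of mTORC1, TSC, GATOR1 and Ragulator lie near 0, and TP63, at 3.85, is the point farthest from it.

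Upstream of mTORC1, the GATOR and Rag genes split. The GATOR1 partners of DEPDC5, NPRL2 and NPRL3, had 0.36 and 0.30 (adjusted p = 0.112 and 0.104 by edgeR). Their neighbours' medians were 0.09 and -0.68, and less these medians NPRL2 had 0.27 and NPRL3 had 0.98. In the list that holds GATOR1, 1 gene was lower and 0 higher in the main fit. With the neighbours' median off, 0 were lower and 1 was higher. Of 8 GATOR2 and sensor genes, SEH1L, SEC13 and WDR59 rose and WDR24 fell. SEH1L, which also belongs to the nuclear pore, had 163 ± 6.00 CPM in p53 KO and 98.5 ± 9.25 CPM in p53 WT (SD, n = 3 each), a log2 fold change of 0.73 (adjusted p = 9.35e-05 by edgeR). SEC13, a pore and COPII coat protein, had 0.43 (adjusted p = 0.00739 by edgeR) and lost its call without p53 WT replicate 3, at 0.34. WDR24, a GATOR2 subunit like WDR59, had -0.81 and lost its call with the neighbours' median off, at -0.17 (adjusted p = 0.652 by edgeR), and without p53 WT replicate 2 (adjusted p = 0.0509 by edgeR). WDR59, which was singled out with its values known, had 0.39, but -0.23 (adjusted p = 0.222 by edgeR) with the neighbours' median off. It also lost its call in 4 of the 6 fits that left out a library. Of 13 Rag, Ragulator and folliculin genes RRAGA rose and RRAGC fell. RRAGA, a Rag GTPase with a close paralog in RRAGB, had 240 ± 23.9 CPM in p53 KO and 127 ± 14.1 CPM in p53 WT (SD, n = 3 each), a log2 fold change of 0.92, or 0.52 with the neighbours' median off, both past the threshold. RRAGC had -0.52, and -0.03 (adjusted p = 0.925 by edgeR) with the neighbours' median off.

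Among the other subunits of the mTOR complexes, 4 of 11 fell and 0 rose, and none of the 4 kept its call with the neighbours' median off. RPTOR, the scaffold of mTORC1, had 64.0 ± 4.01 CPM in p53 KO and 89.1 ± 3.49 CPM in p53 WT (SD, n = 3 each), with -0.48 on the log2 scale and -0.14 with the neighbours' median off (adjusted p = 0.00273 and 0.402 by edgeR). MLST8, shared by both mTOR complexes, had -0.54 and -0.07, and TELO2, which helps assemble them, had -0.44 and 0.14 by the same pair of fits. TELO2 also lost its call without p53 WT replicate 2. MAPKAP1, named after its values were seen, had -0.30 and lost its call in 5 of the 6 fits that left out a library. Of the 4 partners of TSC2, TSC1 had -0.20 and RHEB had 0.08, neither past the threshold. RHEBL1, a RHEB paralog, rose to 3.75 ± 0.782 CPM in p53 KO, against 2.01 ± 0.275 CPM in p53 WT (SD, n = 3 each), but lost its call with the neighbours' median off and in 4 of the 6 fits that left out a library.

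Among 10 genes of AMPK and its upstream kinases other than the beta subunits, CAB39 and STRADB fell and none rose. CAB39, a scaffold of the LKB1 complex that activates AMPK, had 33.3 ± 6.93 CPM in p53 KO and 52.7 ± 1.47 CPM in p53 WT (SD, n = 3 each), a log2 fold change of -0.66 (adjusted p = 0.00293 by edgeR). STRADB, a pseudokinase partner of LKB1, had -0.47 and lost its call in 4 of the 6 fits that left out a library. The catalytic subunits PRKAA1 and PRKAA2 had 0.23 and 0.04, and the gamma subunits PRKAG1 and PRKAG2 had -0.19 and 0.20, none past the threshold. STK11, which encodes LKB1, had -0.31 (adjusted p = 0.0712 by edgeR). PRKAG3 had no count in any library.

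Of 14 genes for effectors and substrates of mTORC1, EIF4EBP2, LPIN1 and GRB10 fell and RPS6 and TFEB rose. EIF4EBP2, a repressor of cap-dependent translation, had 57.4 ± 3.75 CPM in p53 KO and 101 ± 3.32 CPM in p53 WT (SD, n = 3 each), a log2 fold change of -0.81 (adjusted p = 4.06e-05 by edgeR). LPIN1, a phosphatidate phosphatase, had -0.71, and GRB10, an adaptor that dampens insulin receptor signalling and was named after its values were seen, had -0.72. All 3 kept their call with the neighbours' median off. RPS6, a ribosomal protein with many pseudogene copies that make its count uncertain, had 0.88 (adjusted p = 2.54e-05 by edgeR). With the neighbours' median off RPS6 had 0.50, and it kept its call there and in all 6 fits that left out a library. TFEB, a lysosomal transcription factor named after its values were seen, had 0.71 and lost its call with the neighbours' median off and in 4 of the 6 fits that left out a library. EIF4EBP1, RPS6KB1 and ULK1 had 0.19, -0.29 and 0.11, none past the threshold.

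Among 13 transcription factors known to act on sestrin or DDIT4 genes, 3 rose and 3 fell. TP63, a p53 paralog, had 5.68 ± 3.00 CPM in p53 KO and 0.395 ± 0.0611 CPM in p53 WT (SD, n = 3 each), a log2 fold change of 3.85 (adjusted p = 2.80e-05 by edgeR), or 3.47 to 4.23 with 1 library left out. TP73, the other p53 paralog, had 23.7 ± 3.96 CPM in p53 KO and 11.8 ± 1.12 CPM in p53 WT (SD, n = 3 each), a log2 fold change of 1.01. EPAS1, which encodes HIF2A, had 82.7 ± 13.1 CPM in p53 KO and 25.6 ± 5.26 CPM in p53 WT (SD, n = 3 each). ATF4 and HIF1A, named after their values were seen, had -0.39 and -0.54, and 0.02 and 0.03 with the neighbours' median off (adjusted p = 0.908 and 0.916 by edgeR). ATF4 also lost its call without p53 KO replicate 1 or p53 WT replicate 1. The SESN3 regulators FOXO1 and FOXO3 had 0.08 and -0.06, neither past the threshold.

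Of 12 amino acid stress targets of ATF4, SLC7A11 and STC2 fell and VLDLR rose. SLC7A11, the cystine transporter, had 41.2 ± 9.79 CPM in p53 KO and 145 ± 19.1 CPM in p53 WT (SD, n = 3 each). STC2, a secreted glycoprotein, had -1.26 and lost its call in 4 of the 6 fits that left out a library, and VLDLR, a lipoprotein receptor, had 0.56, or -0.0077 with the neighbours' median off. VLDLR also lost its call without p53 KO replicate 2 or p53 WT replicate 2. ASNS, TRIB3, CHAC1 and DDIT3 had 0.14, 0.19, -0.31 and 0.36, none past the threshold. Of 11 tested hypoxia targets of HIF1A, EGLN3 and BNIP3 rose and NDRG1 and LOXL2 fell. EGLN3, an oxygen-sensing prolyl hydroxylase, had 1.34 (adjusted p = 0.00033 by edgeR), and BNIP3, a mitophagy receptor, had 0.44 and lost its call without p53 WT replicate 3. NDRG1 had -0.43, or -0.19 (adjusted p = 0.192 by edgeR) with the neighbours' median off. LOXL2, named after its values were seen, had -0.33 and lost its call in 5 of the 6 fits that left out a library. VEGFA had -0.10 (adjusted p = 0.68 by edgeR).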

How the data were processed

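Raw counts per gene symbol, from a stranded library kit per the labels, were deposited with a column for each library, and 0 such columns went unused. The submitters' processing notes list fastp 0.21.0, HISAT2 2.1.0, DESeq2 1.3.6 and the build GRCh37 (hg19). Neither the counting tool nor its annotation or strand setting is stated in the sources used here. The authors' deposited comparison table gives, for each gene, a signal (mean normalised count), a log2 fold change, a standard error, a test score, p-values and a p53 cistrome mark. Fold change and score had opposite signs in all 35987 rows. Since CDKN1A had a positive one, its direction was taken to be p53 WT over p53 KO.

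The main test was edgeR's quasi-likelihood F-test (edgeR 4.0.16, R 4.3.3; robust, TMM, filterByExpr), with Benjamini-Hochberg adjustment over 22352 genes, and it was tested on simulated data. Each SE equals the absolute log2 fold change over the square root of F. Libraries of a group differed by more than sampling noise, with a chi-square of at least 16.7 per degree of freedom. CPM use TMM factors, except cell type marker levels, both single and summed, and floors, which use total counts. Floors cover counting error only. The alternatives changed the factors (RLE, upper-quartile, none), the filter (none, 1 CPM in 3 libraries), the tool (DESeq2 1.42.0, voom in limma 3.58.1) or the threshold (0.01), added the replicate block, left out each library, or took off, as an offset, the median of the 50 nearest protein-coding genes among 12078 averaging 2 CPM or more. Gene order and promoters are those of RefSeq (GRCh38.p14), which is not the authors' build, and all 10 members matched.

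Named were the 10 members, CDKN1A and MDM2, up to 3 called genes per pathway list by smallest adjusted p, and the 3 nearest profiles per sestrin. Of 147 list and check genes, 142 matched by symbol, 4 by synonym and 1 not at all. Members and lists were chosen with earlier results of these data known. MDM2 had a log2 fold change of -1.93. Protein sequences were not used here. Results for some list and check genes are left out of the text.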

Additional observations from a re-analysis of the deposited data

How the results depend on the processing

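The count of members lower in p53 KO was 6 under 14 of the 16 alternatives and 7 by limma-voom and without p53 KO replicate 3, and none was higher under any of them. With the neighbours' median off the 6 were not the same genes: PRKAB1 took the place of TSC2. MTOR, never past the threshold, turned to 0.0014 with RLE factors, 0.022 with upper-quartile factors, 0.015 with no composition factors and 0.035 by limma-voom, and ranged from -0.15 to 0.13 when 1 library was left out. DEPDC5 turned to 0.13 with the neighbours' median off. An adjusted p under 0.01 left 2099 of 3227 genes lower and 1659 of 2697 higher, and 10 of 19 other pathway genes lower. The other pathway genes lower were 11 with the neighbours' median off, and with 1 library left out 12 to 20 were lower (12 without p53 WT replicate 2) and 8 to 18 higher (8 without p53 WT replicate 3). The cause of these moves was not tested beyond the smaller number of calls that a stricter threshold gives by construction.

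The replicate numbers share no stated culture or day, and deviations of same-numbered libraries correlated at 0.0171, 0.0343 and -0.0291, so the numbers were not taken as pairs. With the replicate block the same 6 members were lower, and 15 other pathway genes were lower and 10 higher. The median of all genes moved by less than 0.1 on the log2 scale under every scaling tried. Libraries of 20393909 to 79767519 counts left DDIT4L undetectable.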
